A study of Homo sapiens with 18 samples.

Results

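The 10 genes described here are members of the transforming growth factor beta (TGF-beta) pathway and of the ID family: the ligands TGFB1, TGFB2 and INHBA, the receptors TGFBR1 and TGFBR2, the signal transducer SMAD3, the inhibitory SMAD7, and ID1, ID2 and ID3. They were taken by symbol from the annotation of the array, which named 11963 genes in all with a probe set of their own. Each was measured in U251 cells, an established human glioblastoma line, with and without silencing of the mitotic kinase MPS1 (gene symbol TTK). The 18 arrays formed 9 groups of 2. Control cells were untransfected, siNeg cells received a negative-control siRNA, and siMPS1 cells received an siRNA against MPS1. RNA was collected from each at 6, 24 and 48 h. All cells shared the U251 background, and the transfections used 2 pmol of siRNA. Whether replicate arrays stem from separate cultures is not stated in the labels, so p-values measure only the spread between these arrays, and the number of arrays limits the precision.

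TGF-beta ligands are secreted in a latent form and, once released, bind the type II receptor TGFBR2, which activates the type I receptor TGFBR1. The activated pair phosphorylates SMAD2 and SMAD3, which enter the nucleus with SMAD4 and change transcription, including that of SMAD7, which feeds back to block the receptors. ID proteins are helix-loop-helix factors without a DNA-binding region that hold E proteins such as TCF3 away from E-box sequences. They are well-known targets of BMP and TGF-beta signals, and in glioma cells they are linked to proliferation and an undifferentiated state.

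Against siNeg, silencing of MPS1 was accompanied by a higher level of TGFBR2 at 24 and 48 h and by lower ID3 at both times. At 48 h ID1 was lower as well, ID2 was higher, and TGFB1 and SMAD3 were lower. Only part of this held against untransfected cells. At 24 h the TGFBR2 difference was called against both controls. That of ID3 at 24 h was called only against siNeg, and this call was lost under some other settings. The TGFBR2, ID1 and ID3 differences at 48 h were called against both controls. Those of TGFB1, SMAD3 and ID2 at 48 h were called only against siNeg. In these 3 genes siNeg was itself called against Control at 48 h, with differences of 0.74, 0.59 and -0.31. Of these calls, those of TGFB1 and ID2 were lost when certain arrays were left out. In all 3 treatments INHBA, SMAD7 and TGFB2 were highest on the arrays of 6 h.

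Levels are given as log2 of the array signal (from MAS5, Affymetrix's summary of a probe set) plus 3, and a difference is a log2 difference of group means on that scale. A gene was called changed at a Benjamini-Hochberg adjusted p under 0.05 in limma, adjusted over the 7616 genes that passed a filter on low signal. Of the 10 genes, 8 passed it, and TGFBR1 and INHBA did not. The 10 genes had 20 probe sets of their own, of which 12 passed, and each gene was represented by its brightest probe set over the 18 arrays. A lower signal from such bulk RNA can come from fewer cells of a kind or from less RNA per cell, which cannot be told apart.

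In the cells as a whole, 6 of 8 astrocytic and glioma markers passed the filter, among them VIM, NES and SOX2. GFAP and S100B, which define astrocytes, did not pass. Of the markers of other cell types, 0 of 5 measured blood markers and 0 of 3 endothelial markers passed, as did 2 of 4 epithelial markers (KRT18 and KRT8) and 2 of 4 fibroblast markers (COL1A1 and COL1A2). The 2 siMPS1 arrays of 48 h stood apart in the 3' to 5' controls for RNA quality. Their 3' probe set of ACTB exceeded the 5' probe set by 0.90 log2 units on average, against 0.12 in siNeg and 0.20 in Control at that time. The same measure for GAPDH was 0.29 against 0.05 and -0.03. The 18S rRNA control varied in the controls too: at 48 h it stood at 11.13 in siMPS1, 10.17 in Control and 9.47 in siNeg, the lowest of the 9 groups, and at 24 h siNeg reached 11.15. The part of these measures in the differences at 48 h was not tested.

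TTK, the targeted gene, was lower in siMPS1 than in siNeg at each time. At 6 h the siMPS1 arrays read 4.07 and 4.27 on the log2 scale, against 5.48 and 5.71 in siNeg and 5.34 and 5.72 in Control. Its log2 differences from siNeg were -1.43, -1.88 and -2.30 at 6, 24 and 48 h, with adjusted p-values of 0.000791, 8.5e-06 and 2.31e-07. No siMPS1 array reached the level of a siNeg or Control array of its time.

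Among the 8 genes tested, 0 were called between siMPS1 and siNeg at 6 h, where 7.93% of all tested genes were called. At 24 h the calls were TGFBR2 and ID3, that is 2 of 8, beside 11.3% of all genes. At 48 h 6 of 8 were called, 2 higher and 4 lower, beside 30% of all genes, 16.2% higher and 13.8% lower. The median log2 difference of the 8 genes at 48 h was -0.20, and that of all genes was 0.02. The comparison of siMPS1 with Control gave 2 calls at 6 h beside 17.3% of all genes, 3 at 24 h beside 13.1% and 3 at 48 h beside 28.3%. The comparisons with siNeg and with Control share the siMPS1 arrays. Between the controls, siNeg minus Control gave 1 call at 6 h beside 4.18%, 0 at 24 h beside 0.998% and 3 at 48 h beside 13.3%.

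**Figure D1:**
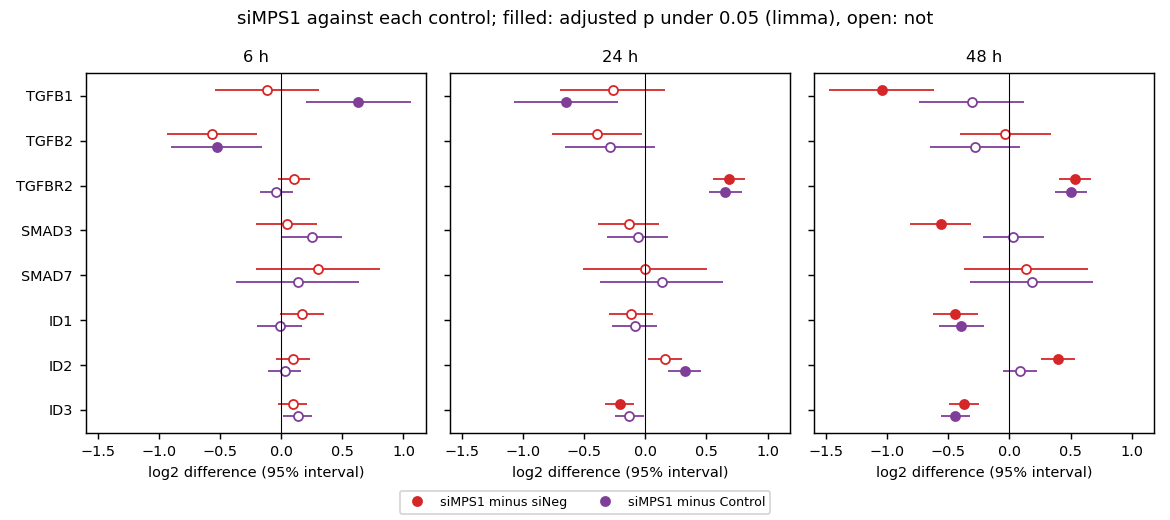
Log2 difference of siMPS1 from siNeg (red) and from Control (purple) for the 8 genes that passed the filter, at 6, 24 and 48 h; points are estimates from 2 arrays a group, bars are 95% intervals, and filled points have an adjusted p under 0.05. TGFBR2 lies to the right of 0 at 24 and 48 h against both controls, ID1 and ID3 lie to the left at 48 h against both, and TGFB1, SMAD3 and ID2 at 48 h are filled only against siNeg.

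TGFB1 encodes the most widely studied ligand of the pathway. At 6 h its probe set 203085_s_at read 4.94 and 5.12 in Control, 5.76 and 5.80 in siNeg, and 5.59 and 5.73 in siMPS1. At 24 h the values were 5.51 and 4.91 in Control, 4.73 and 4.93 in siNeg, and 4.49 and 4.63 in siMPS1. At 48 h they were 4.71 and 5.13 in Control, 5.66 and 5.65 in siNeg, and 4.62 and 4.60 in siMPS1. Both transfected groups thus stood above Control at 6 h, and at 48 h siNeg alone stood above it. The siMPS1 arrays of 48 h lay below every siNeg and Control array of that time.

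Against siNeg the TGFB1 difference at 48 h was -1.04 (SE 0.20, adjusted p = 0.000793), which left 48.5% of the siNeg level. Against Control it was -0.31 with a 95% interval from -0.74 to 0.12 (adjusted p = 0.285), so no difference was called, though the interval does not exclude a decrease. The siNeg arrays were higher than Control by 0.74 at 48 h (adjusted p = 0.0228), a call lost with no filter (adjusted p = 0.0519) and when either siNeg array or Control replicate 1 of that time was left out (adjusted p up to 0.21). The siMPS1 minus siNeg difference at 48 h differed from that at 6 h by -0.93 (SE 0.29, adjusted p = 0.0285), a call lost with no filter and without any of 7 of the 8 arrays it compares, all but siMPS1 replicate 1 of 6 h (adjusted p up to 0.0865). The calls against Control at the earlier times lay close to the threshold: at 6 h siNeg was higher by 0.75 (adjusted p = 0.0476) and siMPS1 by 0.63 (adjusted p = 0.0411), and at 24 h siMPS1 fell short of Control with a difference of -0.65 (adjusted p = 0.0434). All 3 were lost under quantile normalization, under median centring and with no filter. They were lost too without any 1 of 12, 6 and 11 of the 18 arrays, in that order (adjusted p up to 0.253, 0.191 and 0.406). The other TGFB1 probe set, 203084_at, did not pass the filter, with signals from 2.65 to 14.7 units.

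TGFB2 encodes an isoform that glioblastoma cells secrete and that suppresses T cells. At 6 h its brightest probe set, 209909_s_at, read 6.99 and 6.81 in Control, 6.88 and 6.99 in siNeg, and 6.64 and 6.10 in siMPS1. The arrays of 24 h gave 5.94 and 5.80, 5.94 and 6.01, and 5.81 and 5.35 in the same order of groups. The arrays of 48 h gave 6.07 and 6.01, 5.61 and 5.97, and 5.71 and 5.80. Each of the 12 later arrays lay below each of the 6 arrays of 6 h, and the siMPS1 arrays were the lowest at 6 h.

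In Control, TGFB2 fell by 1.03 on the log2 scale from 6 to 24 h (SE 0.18, adjusted p = 0.000116). Its second probe set past the filter, 220407_s_at, gave a difference of -0.93 (adjusted p = 0.00184 among all 19064 probe sets without a filter). The siMPS1 arrays of 6 h differed from siNeg by -0.57 (95% interval -0.94 to -0.20, adjusted p = 0.0545), which missed the threshold. From Control they differed by -0.53 (adjusted p = 0.0456). That call was lost in 4 other fits, with no filter among them, and without any 1 of 13 of the 18 arrays, siMPS1 replicate 2 of 6 h included (adjusted p up to 0.414). For 220407_s_at the same differences were -0.01 and -0.38, so the pair of probe sets did not give the same size against siNeg at 6 h. At 48 h the siMPS1 minus Control difference was -0.28 for the first probe set (adjusted p = 0.255) and -0.74 for 220407_s_at (adjusted p = 0.0167, beside 14.7% of all probe sets called). The other TGFB2 probe sets, 209908_s_at and 220406_at, stayed below 14.3 signal units on every array.

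INHBA encodes the beta A subunit that forms activin A, a ligand that signals through SMAD2 and SMAD3. Its brighter probe set, 210511_s_at, failed the filter because it was dim on most arrays, so its values come from a fit of all 19064 probe sets. At 6 h it read 6.10 and 6.07 in Control, 6.17 and 6.24 in siNeg, and 6.31 and 6.63 in siMPS1. Values at 24 h were 3.54 and 2.25 in Control, 2.34 and 3.28 in siNeg, and 2.94 and 2.57 in siMPS1. Those at 48 h were 2.996 and 3.42, 2.08 and 2.10, and 3.06 and 3.49.

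The 6 arrays of 6 h held INHBA signals from 64.0 to 96.1 units and the 12 later arrays from 1.23 to 8.61 units. In Control INHBA fell by 3.19 on the log2 scale from 6 to 24 h (SE 0.41, adjusted p = 2.09e-05, beside 23.3% of all probe sets called). The later level was near the floor that the added 3 units set, at 1.58 on the log2 scale, so this difference understates a ratio of signals. At 48 h siMPS1 exceeded siNeg by 1.19 (95% interval 0.32 to 2.06, adjusted p = 0.0622) and differed from Control by 0.07 (adjusted p = 0.952). The dimmer probe set, 204926_at, ran from 0.62 to 16.5 signal units, and 10 of its 12 later arrays lay below the lowest array of 6 h.

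TGFBR1, the type I receptor, had a single probe set, 206943_at, which failed the filter. Its signals ran from 0.75 to 12.1 units with a median of 9.36. No comparison called it: the siMPS1 minus siNeg difference was -0.72 at 6 h, -0.96 at 24 h and -0.29 at 48 h, each with an SE of 0.67, and the adjusted p-values were 0.67, 0.529 and 0.864. The 95% interval at 48 h ran from -1.72 to 1.14, too wide to show whether the receptor changed.

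TGFBR2, the type II receptor that binds the ligand, had the smallest adjusted p of the 8 genes against both controls at 24 and at 48 h. At 6 h the probe set 208944_at read 8.25 and 8.27 in Control, 8.10 and 8.13 in siNeg, and 8.21 and 8.23 in siMPS1. At 24 h the values were 7.74 and 7.74 in Control, 7.71 and 7.71 in siNeg, and 8.37 and 8.42 in siMPS1. At 48 h they were 7.99 and 7.96, 7.99 and 7.89, and 8.49 and 8.46. The 4 later siMPS1 arrays were the highest of all 18, and they did not overlap with any array of siNeg or Control.

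Against siNeg TGFBR2 was higher by 0.68 at 24 h (SE 0.06, adjusted p = 1.31e-06), a ratio of 1.61, and by 0.54 at 48 h (adjusted p = 5.7e-06), a ratio of 1.45. Against Control the differences were 0.66 (adjusted p = 2.3e-06) and 0.50 (adjusted p = 1.77e-05). At 6 h the difference from siNeg was 0.10 (95% interval -0.03 to 0.24, adjusted p = 0.346). The response at 24 h exceeded that at 6 h by 0.58 (SE 0.09, adjusted p = 0.00171), and that at 48 h exceeded the one at 6 h by 0.43 (adjusted p = 0.00242). From 24 to 48 h the response differed by -0.15 (adjusted p = 0.291).

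From 6 to 24 h the controls moved the other way from siMPS1, as the plot of the pathway genes by time shows. From 24 to 48 h the TGFBR2 mean rose in siMPS1 and in both controls. In Control TGFBR2 fell by 0.52 from 6 to 24 h (adjusted p = 2.8e-06) and was higher by 0.23 at 48 than at 24 h (adjusted p = 0.0143). The second of these calls was lost without Control replicate 1 or 2 of 24 h or replicate 1 of 48 h (adjusted p up to 0.0825). The siNeg and Control arrays differed by -0.03 at 24 h (adjusted p = 0.888) and by -0.03 at 48 h (adjusted p = 0.798). At 24 h, where the difference was largest, the ACTB control had a 3' excess of 0.43 log2 units in siMPS1, 0.41 in siNeg and 0.31 in Control, and GAPDH one of 0.09, 0.04 and 0.03. The 18S rRNA control read 10.36, 11.15 and 10.18 in the same order, and its part in the result was not tested. The other TGFBR2 probe set, 207334_s_at, did not pass the filter, with signals up to 14.1 units.

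**Figure D2:**
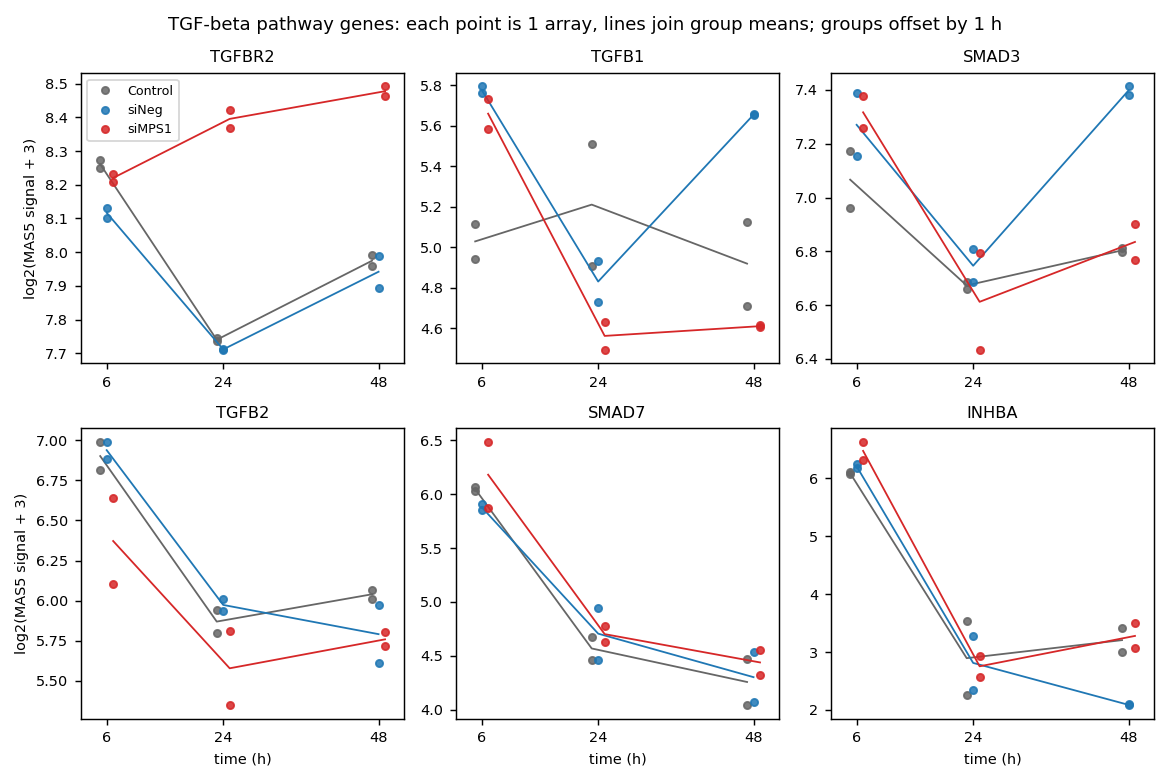
Level of 6 pathway genes as log2 of the MAS5 signal plus 3 against time in hours, with 1 point an array, lines through the means of the 2 arrays of a group, and groups set 1 h apart for legibility; each panel has its own range. The 4 siMPS1 arrays of TGFBR2 at 24 and 48 h lie above 8.3 while the controls lie below 8.0, and INHBA (210511_s_at, not past the filter), SMAD7 and TGFB2 are highest at 6 h in all groups.

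SMAD3, the transducer that the receptors phosphorylate, had 4 probe sets, of which 218284_at was the brightest. At 6 h it read 7.17 and 6.96 in Control, 7.39 and 7.15 in siNeg, and 7.26 and 7.38 in siMPS1. The arrays of 24 h gave 6.69 and 6.66 in Control, 6.69 and 6.81 in siNeg, and 6.79 and 6.43 in siMPS1. The arrays of 48 h gave 6.80 and 6.81, 7.38 and 7.41, and 6.90 and 6.77. At 48 h both siNeg arrays stood above all others, and siMPS1 and Control overlapped.

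The SMAD3 difference of siMPS1 from siNeg at 48 h was -0.56 (SE 0.12, adjusted p = 0.00153), and from Control it was 0.03 (95% interval -0.22 to 0.28, adjusted p = 0.875). The siNeg arrays exceeded Control by 0.59 (adjusted p = 0.00284). The siMPS1 minus siNeg difference at 48 h differed from that at 6 h by -0.61 (adjusted p = 0.0151), a call lost when siNeg replicate 2 or siMPS1 replicate 2 of 6 h, or siMPS1 replicate 2 of 48 h, was left out (adjusted p up to 0.0797). A second probe set, 205398_s_at, gave -0.57 for siMPS1 minus siNeg at 48 h (adjusted p = 0.0424 without a filter, beside 16% of all probe sets called) and 0.52 for siNeg minus Control (adjusted p = 0.118). Over time in Control 218284_at and 205398_s_at parted: from 6 to 24 h the first gave -0.39 (adjusted p = 0.0118) and the second 0.43 (adjusted p = 0.11). A dimmer probe set past the filter, 205396_at, had Control means of 4.32 at 6 h and 3.99 at 24 h. At 48 h its means were 3.96 in Control, 4.35 in siNeg and 3.90 in siMPS1. The last SMAD3 probe set, 205397_x_at, did not pass the filter, with signals from 1.29 to 43.2 units. With the mean of the probe sets the SMAD3 call over time was lost (adjusted p = 0.57), as it was without Control replicate 1 of 6 h or replicate 2 of 24 h.

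**Figure D3:**
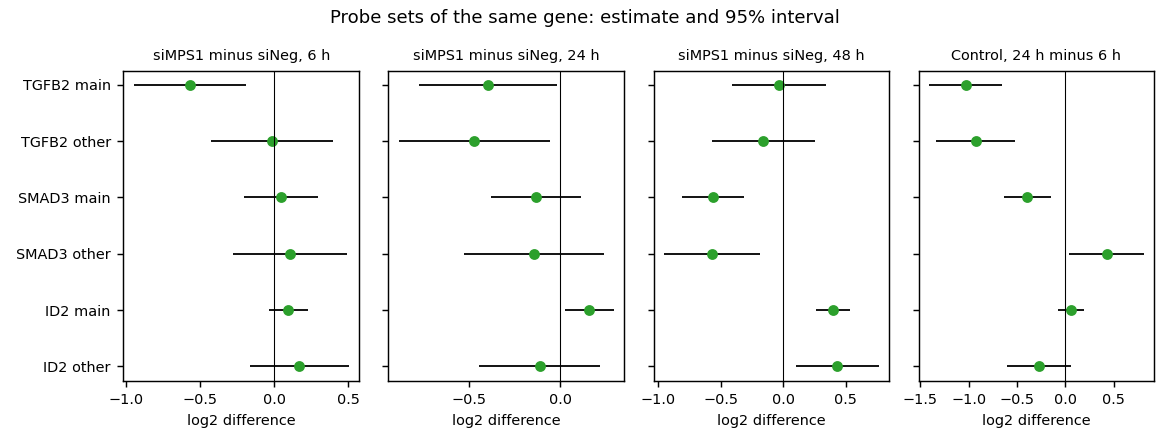
Log2 difference with its 95% interval for the pairs of probe sets of TGFB2, SMAD3 and ID2, in siMPS1 minus siNeg at 6, 24 and 48 h and in Control between 24 and 6 h, from the fit of all probe sets without a filter; "main" is the brighter set and "other" the next one. The pairs lie close together at 48 h, and for SMAD3 they lie on opposite sides of 0 between 24 and 6 h in Control.

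SMAD7, the inhibitor that the pathway itself induces, was measured by 204790_at, which read 6.03 and 6.06 in Control, 5.91 and 5.85 in siNeg, and 5.87 and 6.49 in siMPS1 at 6 h. Values at 24 h were 4.67 and 4.47, 4.95 and 4.46, and 4.63 and 4.77 in the same order. Those at 48 h were 4.04 and 4.47, 4.53 and 4.07, and 4.56 and 4.32. Every later array lay below every array of 6 h, and at 24 and 48 h the 3 groups overlapped. In Control SMAD7 fell by 1.48 on the log2 scale from 6 to 24 h (SE 0.24, adjusted p = 7.26e-05), to 35.9% of its earlier level. No comparison between siMPS1 and a control called it. The 95% interval of siMPS1 minus siNeg ran from -0.51 to 0.50 at 24 h and from -0.37 to 0.64 at 48 h, which does not show that the groups were alike.

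Over the time course of Control cells, 4 of the 8 genes were lower at 24 than at 6 h (TGFB2, TGFBR2, SMAD3 and SMAD7), beside 44.3% of all genes called in either direction and 16.3% called lower. The median difference of the 8 genes was -0.26 and that of all genes 0.12. Centring each array on its median would shift every difference in this comparison by -0.16. Between 24 and 48 h 1 of 8 was called, TGFBR2, beside 20.3% of all genes. A complete separation, with all 12 later arrays below all 6 of 6 h, was found for TGFB2 and SMAD7 and for 9.36% of the 7616 genes, and INHBA outside the filter showed it too. Each time is a harvest of its own, so time and anything else that differed between harvests cannot be told apart.

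The 3 ID genes follow, and the 250 bases upstream of their RefSeq starts (GRCh38.p14) are shown because ID1 and ID3 were lower at 48 h and ID2 was not. Capitals mark GTCT and its reverse complement AGAC, the core letters that SMAD3 and SMAD4 bind. The windows are chr20:31605039-31605288 on the plus strand for ID1, chr2:8681806-8682055 on the plus strand for ID2 and chr1:23559502-23559751 on the minus strand for ID3, each written 5′ to 3′ along its gene.
ID1: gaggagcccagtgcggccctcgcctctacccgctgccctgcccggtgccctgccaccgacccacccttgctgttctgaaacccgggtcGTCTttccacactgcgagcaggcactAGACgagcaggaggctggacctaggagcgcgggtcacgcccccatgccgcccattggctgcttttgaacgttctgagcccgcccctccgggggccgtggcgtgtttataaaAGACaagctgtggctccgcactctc
ID2: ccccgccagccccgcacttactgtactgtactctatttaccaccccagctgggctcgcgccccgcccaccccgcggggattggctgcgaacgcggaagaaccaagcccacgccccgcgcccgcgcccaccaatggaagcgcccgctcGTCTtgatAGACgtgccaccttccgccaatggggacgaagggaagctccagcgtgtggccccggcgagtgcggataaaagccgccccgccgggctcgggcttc
ID3: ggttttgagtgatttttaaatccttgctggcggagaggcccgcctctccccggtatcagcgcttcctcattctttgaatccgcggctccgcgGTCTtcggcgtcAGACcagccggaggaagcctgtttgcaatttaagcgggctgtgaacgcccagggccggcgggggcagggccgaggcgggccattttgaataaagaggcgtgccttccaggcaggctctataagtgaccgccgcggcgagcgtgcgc

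Counted on both strands, the ID1 window held 3 matches of GTCT, the ID2 window 2 and the ID3 window 2. Of 35116 windows of the same length at RefSeq starts, 77.5% held at least 1, with a median of 1. The letters GGCGCC, which BMP-activated SMADs bind, were in none of the 3 windows and in 16.4% of all. The E-box CANNTG had 1 match in the ID2 window and 0 in those of ID1 and ID3, against 61.8% of all windows with a match. GC content was 66% for ID1, 69.2% for ID2 and 62% for ID3, beside a median of 58% over all starts. A match is a description of letters and not a bound site. The absence of a match holds only for these 250 bases, and sequence farther away was not scanned.

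ID1 (probe set 208937_s_at) read 10.38 and 10.36 in Control, 10.13 and 10.24 in siNeg, and 10.35 and 10.36 in siMPS1 at 6 h. At 24 h the values were 10.39 and 10.34 in Control, 10.48 and 10.30 in siNeg, and 10.23 and 10.32 in siMPS1. At 48 h they were 10.11 and 10.23, 10.35 and 10.09, and 9.67 and 9.89. The 2 siMPS1 arrays of 48 h were the lowest of all 18, and the other groups overlapped at 48 h.

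At 48 h ID1 was lower in siMPS1 by a log2 difference of -0.44 from siNeg (SE 0.09, adjusted p = 0.00085), which left 73.5% of the siNeg level. From Control the difference was -0.39 (adjusted p = 0.00271), and without siMPS1 replicate 1 of 48 h that call was lost (adjusted p = 0.0524). At 24 h it was -0.12 from siNeg (95% interval -0.30 to 0.07, adjusted p = 0.443). The response at 48 h differed from that at 6 h by -0.61 (SE 0.12, adjusted p = 0.00191).

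ID3 (probe set 207826_s_at) read 10.09 and 10.07 in Control, 10.09 and 10.15 in siNeg, and 10.20 and 10.23 in siMPS1 at 6 h. The arrays of 24 h gave 10.0002 and 9.92 in Control, 10.09 and 9.99 in siNeg, and 9.79 and 9.87 in siMPS1. The arrays of 48 h gave 10.03 and 10.08, 10.0035 and 9.96, and 9.60 and 9.62. The siMPS1 arrays were the highest at 6 h and the lowest at 24 and 48 h, with no overlap with the other groups of the same time.

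Against siNeg ID3 was lower at 24 h by a difference of -0.21 (SE 0.06, adjusted p = 0.0227) and at 48 h by -0.37 (adjusted p = 8.84e-05), or 77.3% of the siNeg level. Against Control the differences were -0.13 and -0.44 at 24 and 48 h (adjusted p = 0.152 and 2.16e-05). The call at 24 h was lost without siNeg replicate 1 or siMPS1 replicate 1 of that time (adjusted p up to 0.216). It was lost too with no intensity trend and with only the compared groups (adjusted p up to 0.0913). The response at 24 h differed from that at 6 h by -0.31 (adjusted p = 0.0422), a call lost with 5 of the other settings and without any 1 of 9 arrays (adjusted p up to 0.171). The response at 48 h differed from that at 6 h by -0.47 (SE 0.08, adjusted p = 0.000623).

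ID2 behaved differently from ID1 and ID3. At 6 h its probe set 201565_s_at read 8.76 and 8.75 in Control, 8.75 and 8.62 in siNeg, and 8.76 and 8.80 in siMPS1. Values at 24 h were 8.80 and 8.83, 8.996 and 8.96, and 9.18 and 9.10. Those at 48 h were 8.73 and 8.68, 8.33 and 8.45, and 8.83 and 8.76. The siMPS1 arrays were the highest at 24 and 48 h, and at 48 h the siNeg arrays were the lowest of all 18.

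Against siNeg ID2 was higher at 48 h by 0.40 (SE 0.07, adjusted p = 0.000164), and against Control by 0.09 (95% interval -0.05 to 0.22, adjusted p = 0.356). The siNeg arrays differed from Control by -0.31 at 48 h (adjusted p = 0.00392), and that call was lost without siNeg replicate 1 (adjusted p = 0.067). At 24 h, in contrast, ID2 was called against Control, with a difference of 0.32 (adjusted p = 0.00341), and not against siNeg, where the difference was 0.16 (adjusted p = 0.128). The second ID2 probe set, 201566_x_at, gave 0.43 for siMPS1 minus siNeg at 48 h (adjusted p = 0.077 without a filter). At 24 h it gave -0.11 (adjusted p = 0.805) where the first gave 0.16. The response at 48 h differed from that at 6 h by 0.30 (adjusted p = 0.0272), which was lost with the mean of the probe sets, without an intensity trend and in a fit of the compared groups alone. It was lost too without replicate 1 of siNeg or siMPS1 at 6 or 48 h (adjusted p up to 0.125).

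**Figure D4:**
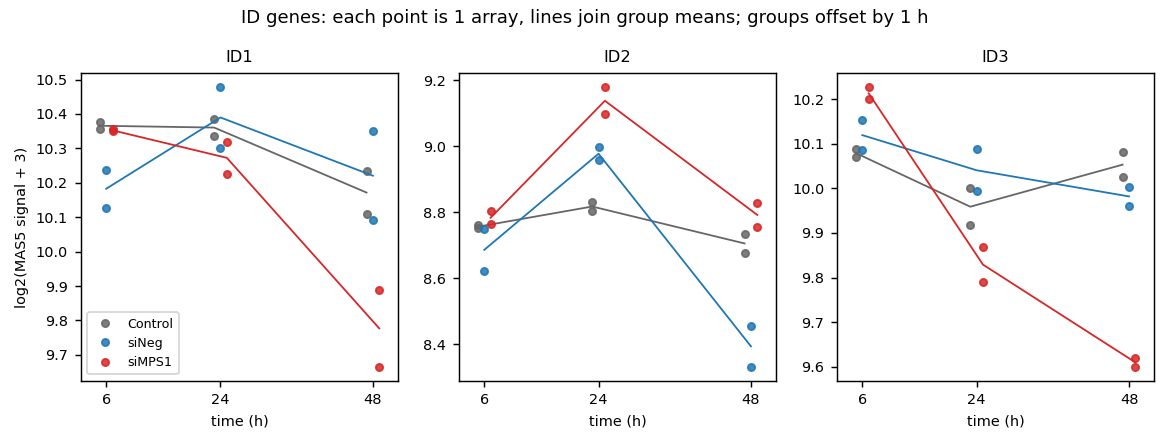
Level of ID1, ID2 and ID3 as log2 of the MAS5 signal plus 3 against time in hours, with 1 point an array, lines through the means of the 2 arrays of a group, and groups set 1 h apart for legibility; each panel has its own range. At 48 h the siMPS1 arrays of ID1 (9.67 and 9.89) and ID3 (9.60 and 9.62) lie below all others, while for ID2 the siNeg arrays (8.33 and 8.45) lie lowest.

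The change of the siMPS1 minus siNeg difference with time was called for 2 of the 8 genes between 6 and 24 h (TGFBR2 and ID3), beside 4.02% of all genes. Between 6 and 48 h it was called for 6 of 8, beside 21.1% of all genes, and between 24 and 48 h for 0 of 8, beside 16.4%. The 6 are TGFB1, TGFBR2, SMAD3, ID1, ID2 and ID3, which are also those called between siMPS1 and siNeg at 48 h, and both tests use the same arrays of 48 h.

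Ordered by group mean, TGFBR2 ran from siMPS1 at 48 h and siMPS1 at 24 h down to Control at 24 h and siNeg at 24 h, and neighbouring groups did not overlap except Control and siNeg at 48 h. ID3 ran from siMPS1 at 6 h down to siMPS1 at 24 h and then 48 h, which were apart from each other and from the rest, while the 6 groups in between overlapped with their neighbours. For ID1 the order ended with Control and then siMPS1 at 48 h, which did not overlap. Among the higher groups the only neighbours in the order that did not overlap were siMPS1 at 6 h and siMPS1 at 24 h. For SMAD3 siNeg at 48 h was the highest group. Its arrays lay above those of the next, siMPS1 at 6 h, but overlapped with those of siNeg at 6 h. The range of the 9 group means was 0.77 for TGFBR2, 0.61 for ID1, 0.74 for ID2, 0.60 for ID3, 0.79 for SMAD3, 1.22 for TGFB1, 1.36 for TGFB2 and 1.92 for SMAD7. The pooled SD within groups was 0.03 for TGFBR2 and 0.04 for ID3, and it reached 0.25 for SMAD7.

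Across the 9 group means, which share arrays and scaling, ID1 and ID3 followed each other with a Pearson r of 0.74, and ID2 had an r of 0.18 with ID1 and -0.24 with ID3. TGFB1 and SMAD3 had an r of 0.85, and TGFB2 and SMAD7 one of 0.84. Among all tested genes, the patterns most like that of TGFBR2 were those of GSTA4 (r = 0.98), CA12 (0.93) and NREP (0.92). The most like ID1 were SNHG32 (0.95), ZNF22 (0.95) and SLC2A10 (0.94), and the most like ID3 were DDHD2 (0.94), PSMG2 (0.94) and WDR4 (0.93). For ID2 they were PPIB (0.97), UGDH (0.95) and TMED5 (0.94). TGFB1 was most like AGRN (0.97), ACTN4 (0.97) and CST3 (0.95), and SMAD3 most like ERGIC3 (0.97), PUF60 (0.95) and CD151 (0.95). For TGFB2 the closest were NR2F1 (0.98), MFAP3L (0.97) and UBR7 (0.97), and for SMAD7 SERPINA5, KATNBL1 and PTPRE, each at 0.99. The highest of 7616 correlations over 9 points is high for most genes, and these are descriptions.

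Of 63 further genes of the pathway and of the ID network, 46 passed the filter. At 48 h 11 were higher and 8 lower in siMPS1 than in siNeg, that is 41.3% beside 30% of all genes, with a median difference of 0.08 beside 0.02. Against Control 11 were higher and 5 lower, 34.8% beside 28.3% of all genes, with a median of 0.17 beside 0.05. At 24 h 6 were higher and 2 lower than in siNeg, 17.4% beside 11.3% of all genes. At 6 h 1 was higher and 3 were lower, and this share of 8.7% lay near the 7.93% of all genes.

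Among ligands and the latent TGF-beta binding proteins that store them, 1 of 7 tested was higher in siMPS1 than in siNeg at 48 h, beside 16.2% of all genes, and 0 were lower. This was GDF15, a stress-induced relative of TGF-beta, which was higher by 1.82 (adjusted p = 1.59e-10) against siNeg and by 0.65 (adjusted p = 2.26e-05) against Control. The siNeg arrays differed from Control by -1.17 in GDF15 at 48 h (adjusted p = 9.53e-08). LTBP2 was higher at 24 h by 0.58 against siNeg (adjusted p = 0.0173) and by 0.67 against Control (adjusted p = 0.00612). Against Control at 48 h 3 of 7 were higher, beside 15.7% of all genes called higher: GDF15, LTBP3 (0.72, adjusted p = 0.0154) and LTBP1 (0.30, adjusted p = 0.0258).

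Among other receptors, 3 of 6 tested were higher in siMPS1 than in siNeg at 48 h, beside 16.2% of all genes. Against Control 0 of 6 were called, beside 28.3% of all genes. TGFBR3, the betaglycan co-receptor, was higher by 1.33 (adjusted p = 0.0267), the activin receptor ACVR2B by 1.03 (adjusted p = 0.0112) and ACVR1, a type I receptor for BMPs, by 0.28 (adjusted p = 0.0317). Their differences from Control were 0.50 for TGFBR3 (adjusted p = 0.423), 0.44 for ACVR2B (adjusted p = 0.275) and -0.02 for ACVR1 (adjusted p = 0.879). TGFBR2 was thus the one receptor tested here that was called against both controls at 48 h.

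Of 15 SMADs and modulators tested, 2 were lower and 0 higher than siNeg at 24 h, where 11.3% of all genes were called in either direction, so that this count lay near the background. At 48 h 5 were lower, beside 13.8% of all genes, and 0 were higher. Against Control at 48 h 3 were lower and 1 was higher, again a share near that of all genes (28.3%). SMURF2, a ubiquitin ligase that removes receptors and SMADs, was lower in siMPS1 than in siNeg at every time, with differences of -0.64, -0.95 and -0.80 at 6, 24 and 48 h (adjusted p = 0.00156, 5.18e-06 and 9.64e-06). Against Control SMURF2 gave -0.51, -0.87 and -0.72 (adjusted p = 0.00302, 1.28e-05 and 4.39e-05). TGIF1, a corepressor of SMADs, was lower at 48 h with a difference of -0.62 from siNeg (adjusted p = 1.28e-05) and from Control (adjusted p = 2.06e-05). At 24 h TGIF1 was also lower than siNeg (-0.30, adjusted p = 0.0206). PMEPA1, a TGF-beta-induced inhibitor of the pathway, gave -0.57 against siNeg at 48 h (adjusted p = 3.47e-05) and 0.12 against Control (adjusted p = 0.276), and siNeg exceeded Control by 0.69 (adjusted p = 2.19e-05). Earlier, PMEPA1 was higher than Control by 0.61 at 6 h (adjusted p = 0.000153) and lower at 24 h, with a difference of -0.44 (adjusted p = 0.00157), and it was called against siNeg at neither time (adjusted p = 0.234 and 0.56). SMAD4, the partner of all receptor-activated SMADs, was lower at 6 h, with differences of -0.54 from siNeg (adjusted p = 0.0216) and -0.51 from Control (adjusted p = 0.0162). SMAD2, which the receptors phosphorylate along with SMAD3, was lower at 48 h than Control (-0.51, adjusted p = 0.00354) and than siNeg (-0.41, adjusted p = 0.0117). The corepressor SKI was lower than Control at 24 h (-0.58, adjusted p = 0.00763), where its difference from siNeg was 0.17 (adjusted p = 0.479).

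Of 3 extracellular antagonists tested, FST, which binds activin, was higher at 48 h by 0.35 against siNeg (adjusted p = 0.000638) and differed from Control by 0.12 (adjusted p = 0.203). Its relative FSTL1 was lower than siNeg at 48 h (-0.17, adjusted p = 0.0457) and differed from Control by 0.04 (adjusted p = 0.68). FSTL3 was lower than Control at 24 h (-0.47, adjusted p = 0.0161) and differed from siNeg by -0.10 (adjusted p = 0.655).

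Among the usual TGF-beta targets, 3 of 10 were higher and 1 was lower than siNeg at 48 h. Of all genes 30% were called there, 16.2% higher and 13.8% lower. Against Control 5 were higher and 1 was lower, beside 28.3% of all genes, 15.7% higher and 12.6% lower. A list of 10 genes gives only a coarse share. CDKN1A, the p21 inhibitor of cyclin-dependent kinases, was higher at 48 h by 1.47 against siNeg (adjusted p = 6.94e-07) and by 1.06 against Control (adjusted p = 3.58e-05). SNAI2, a repressor linked to mesenchymal change, was higher than siNeg by 0.35 and 0.64 at 24 and 48 h (adjusted p = 0.00903 and 1.03e-05), and its differences from Control were 0.20 and 0.34 (adjusted p = 0.116 and 0.0045). The matrix genes FN1 (0.72, adjusted p = 0.00234) and MMP2 (0.58, adjusted p = 0.000439) were higher than Control at 48 h. Against siNeg the differences were 0.48 for FN1 (adjusted p = 0.027) and -0.20 for MMP2 (adjusted p = 0.156). CCN2, a secreted matricellular protein, was lower at 48 h than siNeg (-0.23, adjusted p = 0.00891) and than Control (-0.19, adjusted p = 0.0337). TGFBI, a matrix protein named for its induction by TGF-beta, was higher than siNeg by 0.35 at 6 h and 0.27 at 24 h (adjusted p = 0.00983 and 0.0234), and than Control by 0.29 and 0.34 (adjusted p = 0.012 and 0.00525). THBS1, which releases latent TGF-beta, was lower than siNeg at 6 h (-0.36, adjusted p = 0.0278) and higher at 24 h (0.42, adjusted p = 0.00694), and its differences from Control at these times were -0.10 and 0.30 (adjusted p = 0.502 and 0.0412).

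In the ID network, 3 of 5 genes were higher and 1 lower than siNeg at 48 h, beside 16.2% and 13.8% of all genes. Against Control 2 were higher and 1 was lower, beside 28.3% called in either direction. ID4, the fourth member of the family, was higher by 1.22 against siNeg (adjusted p = 0.000126) and by 0.89 against Control (adjusted p = 0.00263), so ID4 was higher where ID1 and ID3 were lower. TCF3, an E protein that ID proteins hold, was higher than siNeg by 0.40 and 0.68 at 24 and 48 h (adjusted p = 0.0154 and 6.44e-05). Against Control TCF3 was higher by 0.46 and 1.11 at these times (adjusted p = 0.00582 and 4.58e-07). TCF4, another E protein, was higher than siNeg by 0.44 and 0.57 at 24 and 48 h (adjusted p = 0.00744 and 0.000251). Its difference from Control at 48 h was 0.19 (adjusted p = 0.174). HES1, a helix-loop-helix repressor induced by Notch, was lower at 48 h than siNeg (-0.62, adjusted p = 0.0121) and than Control (-0.50, adjusted p = 0.0403). As for the members above, the shift of the RNA quality controls in siMPS1 at 48 h went with these differences at 48 h, and its part was not tested.

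**Figure D5:**
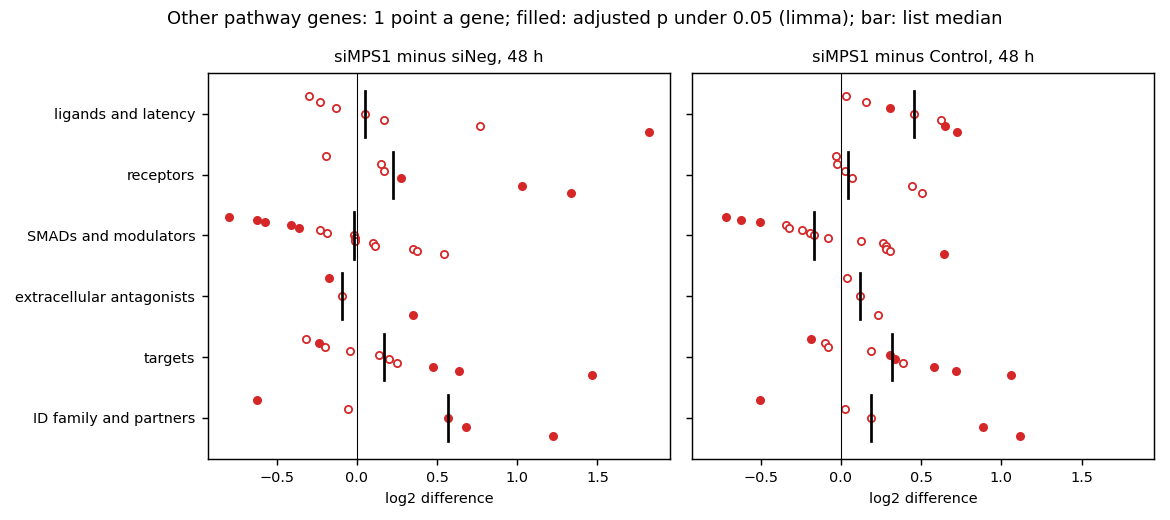
Log2 difference of siMPS1 at 48 h from siNeg (left) and from Control (right) for the 46 further genes past the filter, with 1 point a gene in rows by role, filled where the adjusted p is under 0.05, and a black bar at the median of the row. The ID network has its median at 0.57 against siNeg and 0.19 against Control, and GDF15 at 1.82 and CDKN1A at 1.47 are the points farthest right in the left panel.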

How the data were processed

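The deposited table holds log2 values that the authors made with MAS5, per the submitters' processing notes; base 2 was taken from the values, since the linear signals of every array had a 2% trimmed mean between 100.122 and 100.134. RNA (250 ng) was labelled with biotin for 1-colour Affymetrix human arrays, per the labels; the transfection reagent was not given in the sources used. Of 22277 probe sets, 19064 named 1 gene and were kept. The 40% with the lowest mean were left out (threshold 3.52 on the deposited log2 scale), and the brightest probe set stood for each gene, which left 7616 genes. A pseudocount of 3 was added to the linear signal before log2, with no further normalization; fold changes on this scale understate those of dim genes. One further ID2 probe set, shared with another gene, was not used. All 9 group means were fitted to the 18 arrays with limma 3.58.1 in R 4.3.3 (9 residual and 8.58 prior degrees of freedom, intensity trend, two-sided moderated tests), and p-values were adjusted by Benjamini-Hochberg within each of 14 contrasts. The script was tested on simulated data.

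The members, the gene lists, the marker lists and the tests were chosen with earlier results of these data known. All 10 members are named, with the other pathway genes given by list counts and up to 3 called genes of smallest p per list and contrast, and the 3 genes most like each member. The correlation of replicate arrays was between 0.984 and 0.991, and 0 pairs held identical values. Alternatives were pseudocounts of 1 and 11, quantile normalization, median centring, no filter, a 60% filter, the mean of probe sets, no intensity trend, only the compared groups, a replicate block and leaving out each array. Upstream sequences are from RefSeq on GRCh38.p14 and covered all 10 members.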

Additional observations from a re-analysis of the deposited data

Results flagged for a closer look

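The siMPS1 minus siNeg difference changed with time in 6 genes, by a test of the change itself in limma. Of all genes, 4.02% were called between 6 and 24 h and 21.1% between 6 and 48 h. Those of TGFB1, SMAD3 and ID2 at 48 h and of ID3 at 24 h were lost when certain single arrays were left out. Except for SMAD3, these were also lost under at least 1 other setting. Between 6 and 24 h the difference of TGFBR2 rose by 0.58 log2 units (adjusted p = 0.00171) and that of ID3 changed by -0.31 (adjusted p = 0.0422). Between 6 and 48 h the changes were 0.43 for TGFBR2 (adjusted p = 0.00242), 0.30 for ID2 (adjusted p = 0.0272), -0.93 for TGFB1 (adjusted p = 0.0285), -0.61 for SMAD3 (adjusted p = 0.0151), -0.61 for ID1 (adjusted p = 0.00191) and -0.47 for ID3 (adjusted p = 0.000623). All 8 values use 2 arrays a group, and those of 48 h use the siMPS1 arrays whose 3' excess of ACTB was 0.90.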

How the results depend on the processing

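Of 112 values of 8 genes in 14 contrasts, 33 were called; 22 of these kept the call under every alternative with all arrays in which the gene was tested (9 for TGFB1 and SMAD7, which a 60% filter left untested, and 10 for the other 6 genes), and 19 also with any 1 array left out. No called value reversed, and 58 sign changes concerned values called in neither fit. The changed counts given next are those that moved by a factor over 1.5, or to or from 0. Smaller moves are not all listed. For example, Control 24 minus 6 h gave 5 with median centring and 3 with a 60% filter, against 4. The count for siMPS1 minus Control at 24 h was 2 with median centring and with no filter, against 3. For siMPS1 minus siNeg at 6 h, 1 gene was called with a pseudocount of 11 and with a 60% filter, against 0. At 24 h 1 was called, against 2, with no intensity trend and with only the compared groups. For siNeg minus Control at 6 h, against 1, the count was 0 with quantile normalization, no filter, no intensity trend and the replicate block, 0 with a 60% filter, where TGFB1 was not tested, and 2 with median centring. For siMPS1 minus Control at 6 h, against 2, it was 0 with no filter and 1 with quantile normalization, a 60% filter (TGFB1 not tested), the mean of probe sets, no intensity trend and only the compared groups. Under median centring the 2 calls of siNeg minus Control at 6 h were TGFBR2 and ID1, both lower, and TGFB1 was lost. For siMPS1 minus Control at 6 h the count stayed at 2 under median centring, with TGFB1 lost and TGFBR2 called lower. For Control 48 minus 24 h, against 1, the count was 2 with quantile normalization and with median centring and 0 with only the compared groups. The change from 6 to 24 h kept 1 of 2 with quantile normalization, median centring, no filter, no intensity trend and only the compared groups, and that from 24 to 48 h gained 1 with median centring and with the mean of probe sets.

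With each array left out in turn, the counts ran from 0 to 1 (siMPS1 minus siNeg, 6 h), 1 to 2 (24 h) and 6 to 6 (48 h); 0 to 1, 0 to 0 and 1 to 3 (siNeg minus Control); 0 to 2, 2 to 3 and 2 to 3 (siMPS1 minus Control); 3 to 4 and 0 to 1 (Control over time). For the changes with time they ran from 1 to 2 (6 to 24 h), 0 to 1 (24 to 48 h) and 4 to 6 (6 to 48 h). Where a group kept 1 array, it was assumed to vary like the others. Replicate numbers did not pair the arrays: over 36 pairs of groups the correlation of same-numbered deviations ran from -0.15 to 0.11. Median centring shifted all differences by -0.15 (siNeg minus Control, 6 h), -0.19 (siMPS1 minus Control, 6 h), -0.16 (Control, 24 minus 6 h) and 0.14 (Control, 48 minus 24 h), and it turned the calls over all genes from 235 higher and 83 lower to 137 and 1012 in the first and from 741 and 580 to 237 and 2024 in the second. Signals near the pseudocount (INHBA after 6 h, TGFBR1) limit any ratio.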
